A study of Mus musculus with 32 samples.

Results

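The genes described here are 35 genes of the type I interferon antiviral response, chosen by gene symbol as known interferon-induced genes and interferon response factors. Earlier results of these data were known when they were chosen. All 35 were found among the 25700 genes of the count table, and all 35 passed the filter on low counts in every comparison. They comprise 16 antiviral effectors, 5 members of the OAS family, 2 RNA sensors, 4 transcription and signalling factors, 4 feedback regulators and modifiers, 3 antigen-processing genes and 1 secreted protein.

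The study grew mouse tendon assembloids, in which a tendon core explant is embedded in a collagen 1 hydrogel that is left without added cells or seeded with another cell type. The cores were tail tendon fascicles of male and female mice of the strain B6.129S2-Il6tm1Kopf/J, aged 12 to 15 weeks, that were Il-6+/+ (WT) or Il-6-/- (KO). Total RNA was sequenced after 7 days of culture in 32 libraries, of which 20 came from cores and 12 from hydrogels. The 7 groups were WT cores in cell-free assembloids (n = 4), WT cores with fibroblasts (n = 4), WT cores with macrophages (n = 4), KO cores in cell-free assembloids (n = 4), KO cores with fibroblasts (n = 4), hydrogels around WT cores (n = 6) and hydrogels around KO cores (n = 6). The seeded fibroblasts, named progenitors in the sample labels, were wildtype in every assembloid, were pooled from 6 mice and were used at passages 2 to 4, so the genotype differs in the core alone. A core library pooled 20 to 24 explants of 2 cm from a single mouse, and a hydrogel library pooled 2 hydrogels, in which cells that had left the core were sequenced together with the seeded cells. The macrophages of the assembloids are named by the sample labels without their source. The medium held macrophage colony-stimulating factor at 20 ng/ml in all groups, and RNA was accepted from an integrity number of 2 upwards.

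Type I interferons are secreted proteins that cells release after sensing viral or misplaced nucleic acid. They bind the receptor of Ifnar1 and Ifnar2, and a complex that holds STAT2 and IRF9 then enters the nucleus and switches on genes that carry an interferon-stimulated response element in their promoter. The induced proteins block viral entry, translation and replication, sense more RNA, raise antigen presentation and, through USP18, switch the receptor off again. Several of these genes also keep a basal level in fibroblasts and macrophages without infection.

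Libraries held between 20.4 M and 59.9 M assigned reads (M, megareads), and no pair of libraries of a group was as alike as repeat sequencing of 1 library would be. RNA of Il6, the targeted gene, had no lower mean in the KO groups than in the WT groups. It was at 1.90 to 11.7 CPM (counts of a gene in a standard-size library, scaled by TMM) in the WT cell-free cores and at 6.51 to 20.5 CPM in the KO cell-free cores, and with fibroblasts it was at 4.96 to 11.8 CPM in WT cores and 10.5 to 37.1 CPM in KO cores. The ranges of the genotypes overlapped in both settings. The study compared IL-6 protein in supernatants of WT and KO cell-free cores, and describes IL-6 levels as reduced in assembloids with KO cores. The RNA counts are not a measure of that protein. Gene-level counts do not show which part of the transcript was read, so the groups are called KO-labelled below. Summed CPM of 14 macrophage markers ranged from 2225 to 33204 over all libraries, with the lowest value in KO-labelled hydrogel replicate 5 and the highest in KO-labelled hydrogel replicate 1. Among 5 markers of plasmacytoid dendritic cells, Siglech, Klk1 and Pacsin1 reached 0.518, 0.499 and 0.757 CPM at most and Ccr9 7.11 CPM, whereas Tcf4, which other cell types also express, was at 210 to 508 CPM and made up nearly all of the list's sum of 211 to 512 CPM. The 6 lymphocyte markers summed to 2.22 CPM at most. In such bulk samples, fewer cells of a type and less RNA per cell cannot be told apart.

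The promoters of these genes are shown because they are the part of the gene on which interferon signalling acts. RefSeq (mouse build GRCm38.p6) gave a window of 250 bases before to 50 bases after the start for 27 of the 35 genes, and 12 of these 27 windows (44.4%) held GAAANNGAAA, the core of the interferon-stimulated response element, on either strand. Among all 27025 genes with a window of the same length, 1079 (3.99%) held it. The 12 genes were Ifit1, Ifit3, Ifit3b, Isg15, Rsad2, Bst2, Oas1a, Oas3, Ifih1, Stat2, Trim30a and Eif2ak2. No window was at hand for Oas2, Parp14, Zbp1, Mx1, Rtp4, Mx2, Usp18 and Dhx58. A match of these letters is a description of the sequence and not a binding site. Windows without the letters were those of Ifit2, Ifi44, Oasl1, Oasl2, Irf1, Irf7, Irf9, Xaf1, Cmpk2, Ifi35, Herc6, Psmb8, Psmb9, Tap1 and Lgals3bp, several of which passed a threshold below. Stretches around the match nearest to the gene start are given for 7 of the 12 genes with a match, each written 5′ to 3′ on the strand of the gene, with the match in capitals:
Ifit1 (chr19:34640789-34640828, plus strand, match 85 bases before the start): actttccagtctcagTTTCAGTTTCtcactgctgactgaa
Ifit3 (chr19:34583392-34583431, plus strand, match 122 bases before the start): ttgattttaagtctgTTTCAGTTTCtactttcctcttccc
Isg15 (chr4:156200860-156200899, minus strand, match 66 bases before the start): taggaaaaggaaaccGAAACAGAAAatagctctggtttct
Rsad2 (chr12:26456548-26456587, minus strand, match 120 bases before the start): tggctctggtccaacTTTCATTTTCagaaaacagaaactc
Bst2 (chr8:71537572-71537611, minus strand, match 124 bases before the start): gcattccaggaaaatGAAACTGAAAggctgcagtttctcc
Oas1a (chr5:120907526-120907554, minus strand, match 14 bases before the start): ccttctcgggaaatgGAAACTGAAAatct
Oas3 (chr5:120777710-120777749, minus strand, match 75 bases before the start): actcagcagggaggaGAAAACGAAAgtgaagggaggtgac

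The stretch of Ifit3b, at chr19:34607788-34607827 on the plus strand and 154 bases before its start, held the same letters as that of Ifit3. Those neighbours are also alike in their transcripts: 55.2% of the 31-base words of Ifit3b occur in transcripts of other genes, mostly Ifit3, and the share was 61.8% for Ifit3. For Oas1a it was 68.8%, mostly with Oas1g. Reads of these genes can be split between the copies, and their separate values are uncertain to that extent.

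Across the 7 groups, the highest mean level of a gene was found in the KO-labelled cell-free cores for 28 of the 35 genes. The groups were ranked for the 35 genes only, so no share over all genes stands beside the counts of this paragraph. The hydrogels around WT cores held the highest mean of 6 genes (Oas1a, Bst2, Psmb8, Psmb9, Tap1 and Lgals3bp), and Oas2 was highest in WT cores with macrophages. The lowest group mean was in the hydrogels around KO-labelled cores for 16 genes, in WT cores with macrophages for 8, in WT cores with fibroblasts for 7 and in KO-labelled cores with fibroblasts for 4. The ratio of the highest to the lowest group mean ran from 1.40 for Irf9, the DNA-binding subunit of the STAT complex, to 13.8 for Mx1, a gene of the dynamin-like GTPases. Mx1 averaged 11.3 CPM in the KO-labelled cell-free cores and 0.823 CPM in the hydrogels around KO-labelled cores. After Mx1, the widest ratios were those of Mx2 (7.60), Zbp1 (4.66), Ifit3 (4.53) and Rsad2 (4.47), all effectors.

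**Figure D1:**
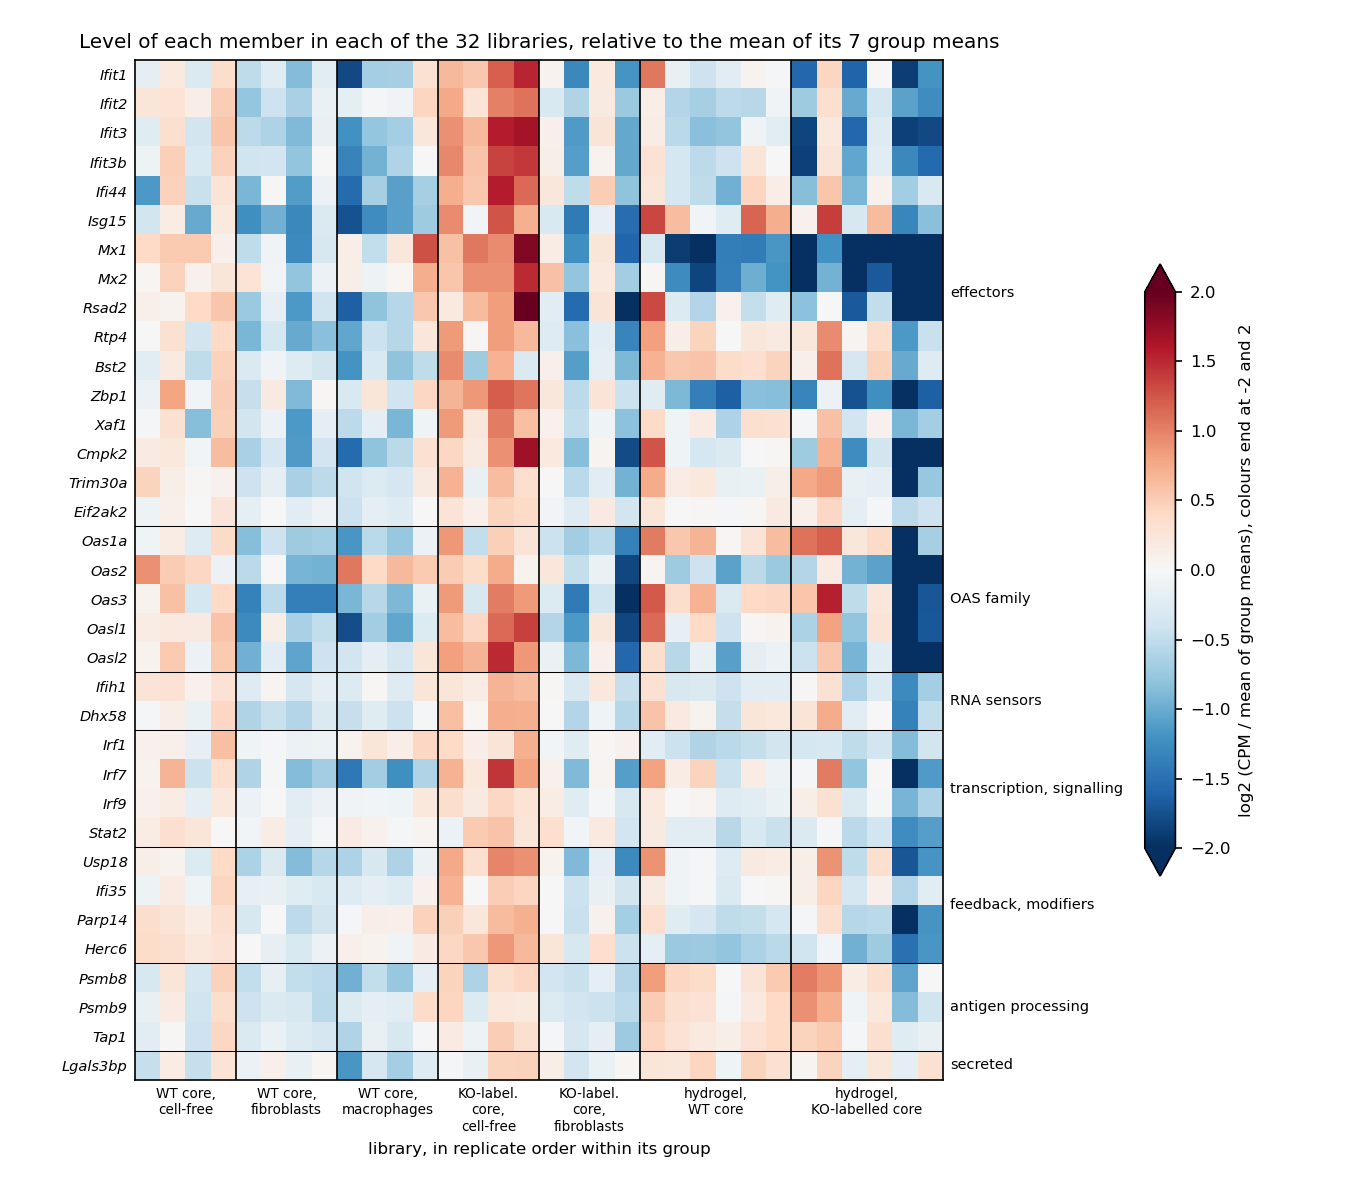
Level of the 35 genes (rows, by role) in the 32 libraries (columns, by group, in replicate order) as log2 of CPM over the mean of the 7 group means of that gene. KO-labelled cell-free cores hold the highest mean for 28 of 35 genes, and KO-labelled hydrogel replicate 5 is the lowest of its group for 31 of 35. Neither count was made over all genes.

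The effect of fibroblasts in the hydrogel on the core was first compared in WT cores, with the cell-free assembloid as control. Interferon response genes were lower in the cores with fibroblasts: 11 of the 35 genes fell past the threshold (edgeR's quasi-likelihood test, Benjamini-Hochberg adjusted p under 0.05 and a log2 fold change beyond 0.5) and none rose. Of all 16188 genes tested, 1.11% fell past it. The OAS family fell most, with 3 of 5 genes past the threshold and a median log2 fold change of -0.88, and 5 of 16 effectors, 1 of 2 RNA sensors and 2 of 4 feedback genes fell. None of the 4 transcription and signalling factors and none of the 3 antigen-processing genes passed. The median log2 fold change was -0.53 over the 35 genes and -0.02 over all genes tested, and 34 of 35 were lower, the exception being Lgals3bp (0.07).

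Oas3, which makes the 2′,5′-oligoadenylate that activates RNase L, was at 18.7, 26.6, 13.9 and 23.6 CPM in the WT cell-free cores and at 6.99, 12.4, 6.91 and 6.92 CPM in the WT cores with fibroblasts. Fibroblast replicate 2 was the highest of its group, and every fibroblast library was below every cell-free library. The log2 fold change was -1.30 (SE 0.24, adjusted p = 0.0252, edgeR). Oas1a, an enzyme of the same family, was at 12.1, 14.3, 10.7 and 16.7 CPM without and at 7.13, 9.67, 7.79 and 8.03 CPM with fibroblasts, again without overlap (log2 fold change -0.70, SE 0.15, adjusted p = 0.0369, edgeR).

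Ifit2, an RNA-binding protein that restrains translation, was at 52.5, 53.4, 48.4 and 62.6 CPM without and 25.9, 33.1, 28.4 and 40.2 CPM with fibroblasts. The groups did not overlap, and the log2 fold change was -0.75 (SE 0.14, adjusted p = 0.0231, edgeR). Trim30a, a RING-finger protein that restrains inflammatory signalling, went from 59.7, 47.2, 44.4 and 46.2 CPM to 32.8, 38.1, 27.9 and 30.5 CPM, also without overlap (log2 fold change -0.59, SE 0.12, adjusted p = 0.0303, edgeR). Rtp4, an interferon-induced inhibitor of flaviviruses, was at 17.8, 22.1, 13.9 and 23.5 CPM without and at 9.48, 13.9, 8.87 and 9.94 CPM with fibroblasts. Here fibroblast replicate 2 and cell-free replicate 3 overlapped (log2 fold change -0.85, SE 0.19, adjusted p = 0.0391, edgeR).

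Parp14, an ADP-ribosyltransferase counted among the modifiers, was at 147, 137, 127 and 144 CPM in the cell-free and at 91.8, 113, 80.0 and 88.5 CPM in the fibroblast group. All fibroblast libraries were lower than all cell-free libraries, with a log2 fold change of -0.55 (SE 0.10, adjusted p = 0.0246, edgeR). The other genes past the threshold were Dhx58, a RIG-I-like sensor, Rsad2 (viperin, which makes a chain-terminating nucleotide), Cmpk2, a mitochondrial nucleotide kinase, Usp18 and Oasl2. Herc6, the mouse ligase for ISG15, fell by 0.43 and Ifih1, the sensor MDA5, by 0.39 on the log2 scale with adjusted p = 0.0230 and 0.0472 in edgeR, under the fold threshold. Oas2 did not pass, with adjusted p = 0.0565 in edgeR.

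For 15 of the 35 genes the 4 fibroblast libraries were all below the 4 cell-free libraries, against 7.20% of all genes tested. Within the 3 number codes that the sample titles share (150, 152 and 154), the median difference was -0.36, -0.51 and -0.70 on the log2 scale, and 32, 34 and 35 genes were lower. Macrophage markers moved with the comparison: 12 of 14 were lower in the cores with fibroblasts, 1 past the threshold, with a median log2 fold change of -0.42, and their summed CPM was 10412 to 14508 without and 9485 to 10153 with fibroblasts. Summed endothelial markers were lower as well, at 17.5 to 21.5 CPM without and 8.63 to 15.1 CPM with fibroblasts (1 of 4 tested past the threshold), and 8 of 9 tendon fibroblast markers were higher, 2 past the threshold, with sums of 24387 to 37946 and 30132 to 52502 CPM that overlapped. The part of these markers in the result was not tested. The count of 11 genes rested on single libraries: it was 0 without cell-free replicate 1, fibroblast replicate 1 or fibroblast replicate 3, and 1 without cell-free replicate 2 or fibroblast replicate 4. It was 0 in the fit of all 5 core groups together. The number of all genes past the threshold in either direction, 423, was 49 to 640 without single libraries.

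**Figure D2:**
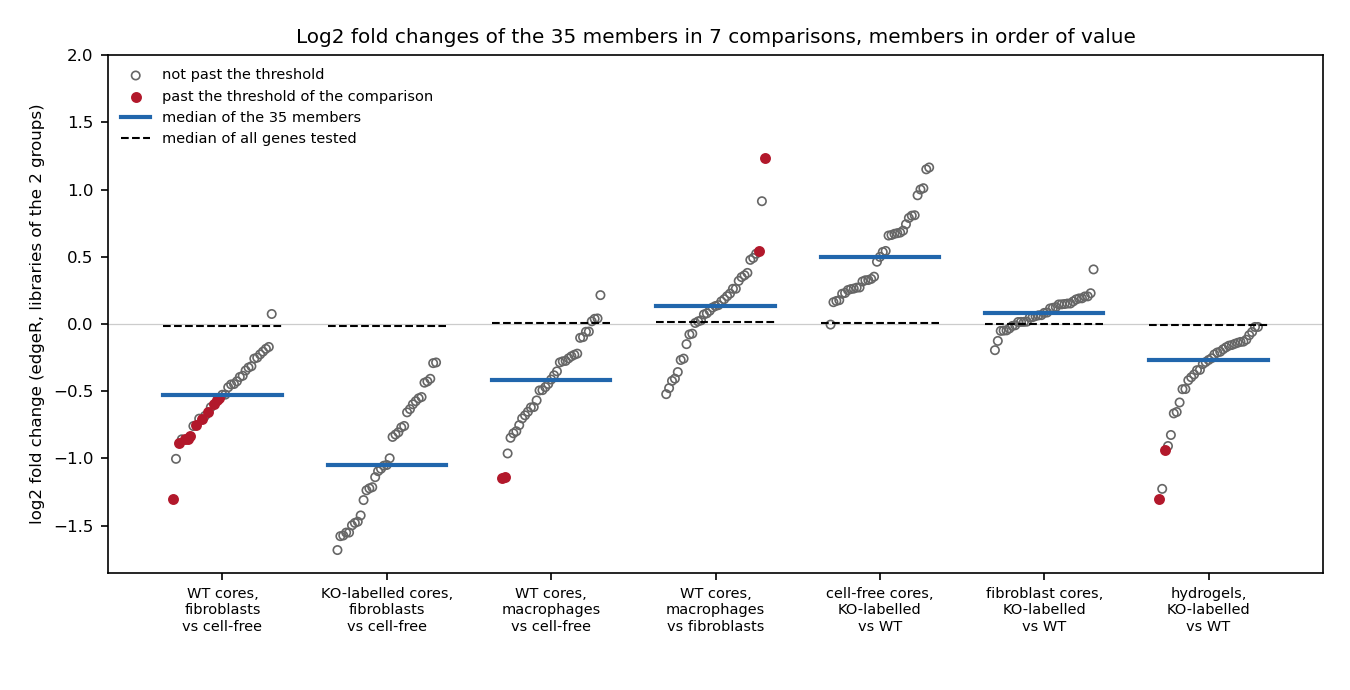
Log2 fold change (edgeR) of each of the 35 genes, drawn in order of value, in 7 comparisons, with filled points past the threshold of the comparison, a blue bar at the median of the 35 genes and a dashed line at the median of all genes tested. The medians are -0.53 and -1.05 for fibroblasts against cell-free in WT and KO-labelled cores and 0.50 for KO-labelled against WT cell-free cores.

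In the KO-labelled cores, the same comparison of fibroblast with cell-free assembloids gave a lower value for all 35 genes, with a median log2 fold change of -1.05 beside -0.02 over all genes tested. No gene reached an adjusted p under 0.05 in edgeR's quasi-likelihood test without a block, where 0.132% of 15965 genes fell past the threshold. At an unadjusted p under 0.05, 32 of the 35 genes were lower, against 6.01% of all genes tested. DESeq2 called 22, a count given without its share over all genes. Calls over all genes in either direction reached 1140 in the other settings. Same-numbered libraries of these groups deviated together, and in a fit blocked on that number 20 of the 35 genes fell past the threshold, against 1.16% of all genes tested. For 19 genes all fibroblast libraries were below all cell-free libraries, against 2.53% of all genes. The median was -1.48 for the OAS family and -1.18 for the effectors.

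Zbp1, a sensor of Z-form nucleic acid that starts necroptosis, was at 20.3, 23.1, 29.5 and 26.7 CPM in the KO-labelled cell-free cores and at 14.9, 8.82, 15.1 and 9.42 CPM with fibroblasts. The groups did not overlap, and the log2 fold change was -1.05 (SE 0.20, adjusted p = 0.0552 in edgeR, 0.0168 with the block). Ifit2 was at 75.0, 53.6, 88.9 and 93.7 CPM without and 35.7, 29.3, 50.3 and 26.4 CPM with fibroblasts, again apart (log2 fold change -1.14, SE 0.22, adjusted p = 0.0637 in edgeR, 0.0119 with the block). Ifit3b was at 17.0, 13.0, 22.3 and 23.3 CPM without and 9.47, 4.09, 9.22 and 4.31 CPM with fibroblasts, with fibroblast replicates 2 and 4 the lowest (log2 fold change -1.47, SE 0.30, adjusted p = 0.0715 in edgeR, 0.0133 with the block). An exact permutation test of each of these genes gave p = 0.0286, the smallest that 4 against 4 libraries allow.

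Leaving out KO-labelled cell-free replicate 2 raised the count without the block from 0 to 19, and leaving out fibroblast replicate 3 raised it to 3. Calls over all genes tested, in either direction, moved as well: 69 as reported, 4 to 497 without single libraries and 54 to 1140 under the other settings, DESeq2 among them. The summed macrophage markers of the KO-labelled cell-free cores, 6518 to 19780 CPM, enclosed those of the cores with fibroblasts, 8661 to 10307 CPM, and 11 of 14 markers were lower, none past the threshold. Summed mural cell markers were at 21.1 to 36.6 CPM without and 10.5 to 15.03 CPM with fibroblasts, without overlap and with 1 of 3 tested past the threshold, and endothelial markers at 12.3 to 28.1 and 9.05 to 14.6 CPM. The part of these markers in the result was not tested. Within the title numbers 150, 152 and 154 the median difference of the 35 genes was -0.60, -0.86 and -1.60.

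Whether the fall with fibroblasts differed between KO-labelled and WT cores was tested by the interaction of genotype and fibroblasts. None of the 35 genes passed at an adjusted p under 0.05 in edgeR, although 34 had a negative interaction, with a median of -0.38. The 3 lowest unadjusted p in edgeR were those of Ifit3b (-0.95, SE 0.39, unadjusted p = 0.0288), Ifit1 (-0.96, SE 0.43, unadjusted p = 0.0410) and Ifit3 (-0.96, SE 0.44, unadjusted p = 0.0439). No other of the 35 genes was under 0.05, and each of the 3 had adjusted p = 0.985 in edgeR. DESeq2 called none, and 504 of 16772 genes had an unadjusted p under 0.05. A difference between the genotypes in the size of the fall was therefore not shown for any of the genes.

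The genotypes themselves were compared first without added cells. Relative to the WT cell-free cores, the KO-labelled cell-free cores had higher values for 34 of 35 genes, with a median log2 fold change of 0.50 beside 0.01 over all genes tested. This comparison uses the cell-free libraries that also served as controls above. After adjustment, edgeR called no gene among the 35, as among all 16065 genes tested (0%), while 22 of the 35 genes were higher at an unadjusted p under 0.05, against 1.18% of all genes. The effectors carried most of these, 14 of 16, with a median of 0.73. For 8 genes every KO-labelled library was above every WT library, against 0.529% of all genes tested.

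Ifit1, which binds viral RNA with an unmethylated cap, was at 43.2, 40.2, 63.4 and 79.8 CPM in the KO-labelled and 24.5, 31.6, 22.5 and 35.4 CPM in the WT cell-free cores. The groups were apart, with a log2 fold change of 1.01 (SE 0.23, unadjusted p = 0.0013, adjusted p = 1.00, edgeR). Ifit3, its partner in the IFIT complex, was at 62.3, 52.0, 98.1 and 105 CPM against 28.0, 41.4, 25.6 and 48.8 CPM (log2 fold change 1.16, SE 0.27, unadjusted p = 0.00145, adjusted p = 1.00, edgeR). KO-labelled replicates 3 and 4 were the highest for both genes. Ifit3b followed with 0.96 (SE 0.23, unadjusted p = 0.00197, edgeR), and the exact permutation test gave p = 0.0286 for each of the 3 genes. DESeq2 put Ifit1 and Ifit3 under its threshold, with adjusted p = 0.0475 and 0.0406. The median difference within title numbers 150, 152 and 154 was 0.58, 0.44 and 0.33. The macrophage marker sums of these groups overlapped.

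**Figure D3:**
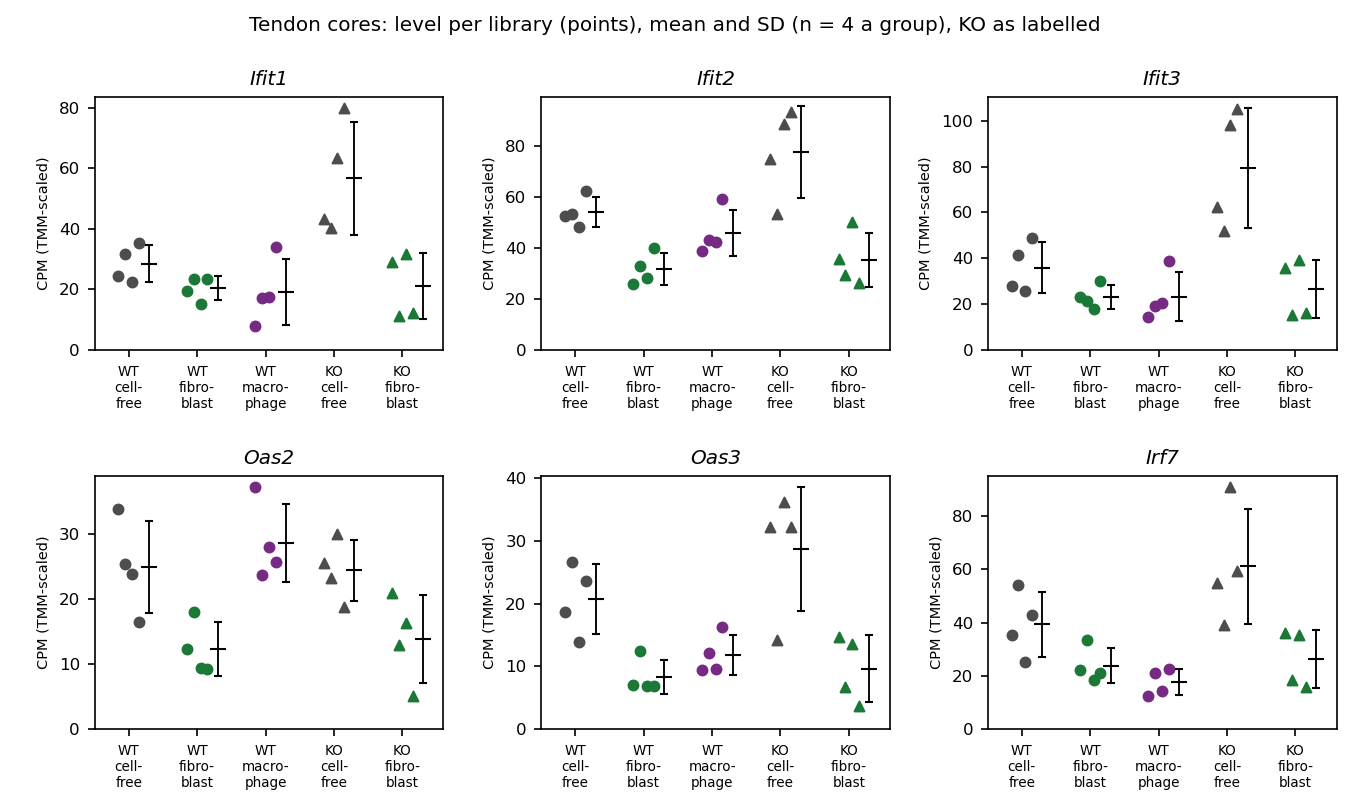
CPM of 6 interferon response genes in each core library (points), with the mean and SD of the 4 libraries of a group beside them, for WT (circles) and KO-labelled cores (triangles). For Ifit1 and Ifit3 the 4 KO-labelled cell-free cores lie above the 4 WT cell-free cores, and for Oas2 the 4 macrophage cores lie above the 4 WT fibroblast cores.

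With fibroblasts in the hydrogel, KO-labelled and WT cores were close. None of the 35 genes was past the threshold of this comparison (unadjusted p under 0.05 and a log2 fold change beyond 0.5), none had an unadjusted p under 0.05 in edgeR and DESeq2 called none, while 2.44% of 16088 genes were past it. The median was 0.08, with 27 genes higher, and ranged from -0.04 to 0.25 when single libraries were left out. Dhx58 had the lowest p, at 19.9, 13.2, 18.6 and 13.4 CPM in KO-labelled and 13.1, 14.7, 13.3 and 16.2 CPM in WT cores (log2 fold change 0.19, SE 0.14, unadjusted p = 0.207 in edgeR, exact permutation p = 0.314). Ifi44, a cytoplasmic protein of little-known function, and Herc6 followed with 0.41 (SE 0.32, unadjusted p = 0.234 in edgeR) and 0.15 (SE 0.16, unadjusted p = 0.385 in edgeR). All these groups overlapped. The libraries split by title number: in 150 all 35 genes were higher in the KO-labelled core (median 0.47), in 152 there were 26 (0.08), and in 154 the KO-labelled core was lower for 32 (-0.52).

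Macrophages in the hydrogel were compared with the cell-free assembloid in WT cores only. Irf7, the factor that amplifies interferon production, was at 12.6, 21.1, 14.4 and 22.4 CPM with macrophages and 35.4, 54.1, 25.3 and 42.7 CPM without. All 4 macrophage libraries were below the cell-free ones (log2 fold change -1.15, SE 0.25, adjusted p = 0.0273, edgeR). Oasl1, an OAS-like protein that represses translation of Irf7, was at 1.46, 3.09, 2.43 and 4.13 CPM against 5.57, 5.74, 5.70 and 7.43 CPM, also apart (log2 fold change -1.14, SE 0.27, adjusted p = 0.0410, edgeR). These 2 of the 35 genes fell past the threshold and none rose, while 3.85% of 16441 genes fell, so the count was close to the background. Oas3 came next, at 9.48, 12.1, 9.55 and 16.2 CPM with macrophages, overlapping the cell-free cores (log2 fold change -0.80, SE 0.23, adjusted p = 0.0741, edgeR).

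The median over the 35 genes was -0.41, beside 0.01 over all genes tested, and 31 were lower. Deviations of same-numbered libraries correlated at 0.145 to 0.292, but macrophage replicates 1 and 2 correlated better with a cell-free library of another number (0.213 and 0.2). With the replicate block 8 genes fell past the threshold, against 4.92% of all genes tested. The count was 0 without cell-free replicate 1, 2 or 4 or macrophage replicate 1 or 3, 1 without macrophage replicate 2, 3 without cell-free replicate 3 and 9 without macrophage replicate 4, which was the highest of its group for 31 of 35 genes. Calls over all genes in either direction, 757, were 291 to 1055 without single libraries. In the cores next to macrophages, 11 of 14 macrophage markers were lower than in the cell-free cores, 2 past the threshold, and their sum was 5592 to 12892 CPM, overlapping the cell-free cores. Summed endothelial markers were at 7.15 to 10.2 CPM with macrophages, below the 17.5 to 21.5 CPM of the cell-free cores. The part of these markers in the result was not tested.

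WT cores with macrophages were also compared directly with WT cores with fibroblasts, which use the same libraries as the preceding comparisons. Oas2 was at 37.3, 23.7, 28.0 and 25.7 CPM with macrophages and 12.3, 18.1, 9.37 and 9.30 CPM with fibroblasts. No macrophage library came down to a fibroblast library, and the log2 fold change was 1.24 (SE 0.22, adjusted p = 0.0069, edgeR). Ifit2 was at 39.1, 43.1, 42.4 and 59.4 CPM with macrophages and was higher by 0.54 on the log2 scale (SE 0.16, adjusted p = 0.0429, edgeR), with the lowest macrophage library under the highest fibroblast library. These 2 genes rose past the threshold and none fell, while 5.28% of 16370 genes rose.

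Irf1, a factor that drives a basal antiviral state, was at 48.2, 54.4, 50.3 and 61.7 CPM with macrophages and 43.3, 44.8, 42.4 and 43.2 CPM with fibroblasts, apart but under the fold threshold (log2 fold change 0.32, SE 0.08, adjusted p = 0.0259, edgeR). Parp14 was also under it, at 0.48 (SE 0.13, adjusted p = 0.0309, edgeR). The median was 0.13, and 25 of 35 genes were higher with macrophages. With the replicate block, Oasl2 joined the genes that rose, and Lgals3bp, a secreted galectin ligand, fell by 0.56 on the log2 scale. Without single libraries 1 to 3 genes rose and 0 or 1 fell.

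The hydrogel libraries show the seeded fibroblasts and the cells that left the core. Around KO-labelled cores all 35 genes were lower than around WT cores, with a median log2 fold change of -0.27 beside -0.01 over all genes tested, but the groups overlapped for every gene. Past the threshold of this comparison (unadjusted p under 0.05 and a log2 fold change beyond 0.5), 2 of the 35 genes fell and none rose, against 0.250% of 15227 genes that fell, and no gene passed an adjusted p under 0.05. These were Mx2 (-0.93, SE 0.36, unadjusted p = 0.0227 in edgeR, exact permutation p = 0.0325) and Mx1 (-1.30, SE 0.51, unadjusted p = 0.0242 in edgeR, exact permutation p = 0.0260), both at or below 4.96 CPM in every hydrogel. Mx2 had a lowest, median and highest level of 1.37, 2.09 and 4.96 CPM around WT cores and of 0.632, 1.10 and 2.54 CPM around KO-labelled cores. Mx1 had 0.911, 1.90 and 3.99 CPM and 0.190, 0.616 and 2.15 CPM. In both genes WT replicate 1 was the highest of all hydrogels and KO-labelled replicate 5 the lowest.

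Rsad2 was at 46.4, 15.4, 12.3, 19.6, 13.3 and 15.7 CPM in the 6 hydrogels around WT cores and at 10.5, 18.6, 5.80, 13.1, 0.632 and 3.76 CPM in those around KO-labelled cores. KO-labelled replicates 2 and 4 lay within the WT range and the other 4 below it. The log2 fold change was -1.23 (SE 0.58, unadjusted p = 0.0552 in edgeR, exact permutation p = 0.0390). Deviations of same-numbered hydrogels from their group means correlated at 0.173 to 0.535. KO-labelled replicates 2, 3 and 6 correlated better with a WT hydrogel of another number (0.614, 0.311 and 0.338), so the number does not clearly pair them. With the replicate block Rsad2, Ifit1 and Cmpk2 joined Mx1 and Mx2, giving 5 genes against 0.814% of all genes tested.

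The KO-labelled hydrogels differed more among themselves than the WT hydrogels did. The median SD of log2 CPM within the group was 0.74 for the 35 genes around KO-labelled cores and 0.35 around WT cores, against 0.31 and 0.18 over all genes tested. KO-labelled replicate 2 was above all 6 WT hydrogels for 25 of the 35 genes and below all of them for 0. Replicate 5 was below all WT hydrogels for 34 genes, replicate 6 for 29, replicate 3 for 25, replicate 1 for 10 and replicate 4 for 3. These counts were made for the 35 genes only, so they cannot be told apart from a deviation of the whole library. Among the WT hydrogels, replicate 1 was the highest for 33 genes and replicate 4 the lowest for 25.

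Split by title number, the hydrogels gave different directions. In 150 the median difference of KO-labelled from WT was 0.10, with 21 genes higher, in 152 it was -0.08, with 25 lower, and in 154 it was -1.25, with all 35 lower. The count of 2 was 0 without WT replicate 1, 12 without KO-labelled replicate 2, 4 without KO-labelled replicate 4 and 3 without KO-labelled replicate 5. Of all genes tested, 115 were past the threshold in either direction, and 85 to 304 were without single libraries. Summed macrophage markers were 19234, 17299, 16211, 16254, 10163 and 14256 CPM around WT cores and 33204, 20357, 17536, 12737, 2225 and 12348 CPM around KO-labelled cores. The highest and the lowest of these sums were both in the KO-labelled group. The lowest was in replicate 5, which was also lowest of its group for 31 of the 35 genes, but the highest was in replicate 1 and not in replicate 2. None of the 14 markers was past the threshold. Of 5 mural markers 1 was lower past it around KO-labelled cores, with sums of 38.6 to 160 CPM against 95.5 to 179 CPM around WT cores. The part of these markers in the result was not tested.

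**Figure D4:**
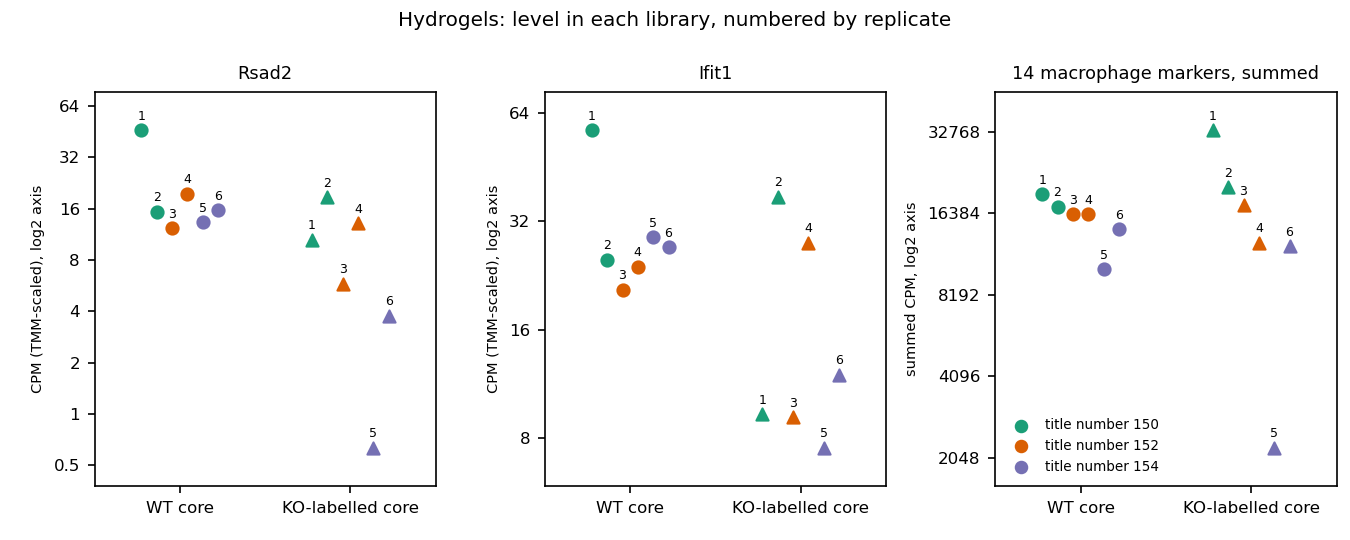
Level of Rsad2, of Ifit1 and of the summed 14 macrophage markers in each hydrogel library (log2 axis, CPM), numbered by replicate and coloured by the number in the sample title. Rsad2 runs from 0.632 to 18.6 CPM around KO-labelled cores and from 12.3 to 46.4 CPM around WT cores.

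The compartments of the same fibroblast assembloids were then compared. Hydrogel and core of the same title code deviated together, with correlations of 0.199 to 0.252 in WT and 0.182 to 0.361 in KO-labelled assembloids. Values below come from fits without that pairing unless a block is named. Around WT cores, 13 of the 35 genes were higher in the hydrogel than in the core (adjusted p under 0.05 and log2 fold change beyond 0.5) and 3 were lower, where 18.1% of 16037 genes were higher and 24.7% lower. All 3 antigen-processing genes were among the higher ones. The median was 0.35, beside 0.00 over all genes tested. The genes lower in the hydrogel were all effectors: Mx1, Mx2 and Zbp1. With the title code as a block, 8 of the 35 genes were higher, against 18.9% of all genes tested, so that count was close to the background.

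Bst2, tetherin, which holds budding virus at the membrane, had a lowest, median and highest level of 52.8, 58.7 and 67.3 CPM in the WT hydrogels, and was at 34.2, 39.7, 34.8 and 32.2 CPM in the cores. Every hydrogel was above every core (log2 fold change 0.70, SE 0.08, adjusted p = 1.05e-05, edgeR). Rtp4 was at 17.7, 20.5 and 31.3 CPM in the hydrogels (lowest, median, highest), all above the cores (log2 fold change 1.03, SE 0.17, adjusted p = 0.000226, edgeR). Oas1a was at 13.1, 19.1 and 26.3 CPM (log2 fold change 1.17, SE 0.17, adjusted p = 9.08e-05, edgeR). Oas3 was at 14.5, 23.6 and 41.8 CPM (log2 fold change 1.59, SE 0.27, adjusted p = 0.000282, edgeR). These OAS genes, too, were higher in every hydrogel than in every core.

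Tap1, a subunit of the transporter that moves peptides into the endoplasmic reticulum, was at 34.1, 38.6 and 42.6 CPM in the hydrogels and 26.0, 28.9, 26.2 and 25.02 CPM in the cores. The groups did not overlap (log2 fold change 0.50, SE 0.07, adjusted p = 6.42e-05, edgeR). Psmb9, an immunoproteasome subunit, was at 9.15, 11.6 and 13.3 CPM against 7.04, 7.64, 7.52 and 6.42 CPM, also apart (log2 fold change 0.63, SE 0.10, adjusted p = 0.000221, edgeR). The remaining genes that were higher past the threshold were Psmb8, Isg15, Dhx58, Trim30a, Usp18, Cmpk2 and Irf7. Irf1 and Herc6 were lower by 0.39 and 0.49 on the log2 scale, under the fold threshold.

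Macrophage markers were higher in the WT hydrogels too: all 14 were higher, 8 past the threshold, and the summed CPM of 10163 to 19234 lay above the 9485 to 10153 of the cores. Mural markers separated the compartments further, with sums of 95.5 to 179 CPM in the hydrogels and 11.9 to 23.3 CPM in the cores (3 of 5 higher past the threshold), as did Schwann cell markers, at 21.5 to 48.3 and 3.24 to 5.95 CPM (3 of 3 tested). Of 9 tendon fibroblast markers 6 were lower past the threshold in the hydrogel. The part of these markers in the result was not tested. The compartments share the code in their titles, and with that code as a block 8 genes were higher, against 18.9% of all genes tested, and 4 lower, against 25.6%. Without single libraries 9 to 15 genes were higher and 0 to 4 lower, with 0 lower without core replicate 2 or hydrogel replicate 4.

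In the KO-labelled fibroblast assembloids, no gene was higher in the hydrogel past the threshold without a block, where 17.0% of all genes tested were higher. With the title code as a block 7 were higher, against 19.9% of all genes tested, so that count was close to the background. In the fit without a block, 7 had an unadjusted p under 0.05 in either direction, 1 of them higher, and DESeq2 called 1 higher. A lower level was found for 5 genes, where 24.6% of 16084 genes were lower, and the median was -0.12. Mx2 was at 1.10, 2.54, 1.09, 1.53, 0.632 and 0.890 CPM in the hydrogels and 7.32, 2.83, 5.63 and 3.03 CPM in the cores, without overlap (log2 fold change -1.89, SE 0.39, adjusted p = 0.00209, edgeR). Mx1 was at 0.190, 0.616 and 2.15 CPM (lowest, median, highest) in the hydrogels and 5.53, 2.11, 5.89 and 1.66 CPM in the cores. Hydrogel replicate 2 overlapped the cores (log2 fold change -2.23, SE 0.60, adjusted p = 0.00904, edgeR).

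Zbp1 was at 1.99, 4.596 and 11.7 CPM in the hydrogels and 14.9, 8.82, 15.1 and 9.42 CPM in the cores, where again hydrogel replicate 2 overlapped (log2 fold change -1.20, SE 0.40, adjusted p = 0.0243, edgeR). Herc6 and Stat2, the latter a subunit of the STAT complex, were lower by 0.75 and 0.62 on the log2 scale (SE 0.27 and 0.23, adjusted p = 0.0339 and 0.0444, edgeR), both with overlap. With the title code as a block, 7 genes were higher, against 19.9% of all genes tested, and 6 lower, against 26.5%. Without hydrogel replicate 5, 5 genes were higher, and without core replicate 1 or 3 or hydrogel replicate 3, 2 were lower. All 14 macrophage markers were higher in the hydrogel, none past the threshold. Mural markers summed to 38.6 to 160 CPM in the hydrogels and 10.5 to 15.03 CPM in the cores, and Schwann cell markers to 17.3 to 44.0 and 3.33 to 5.49 CPM, each with 3 genes past the threshold. The part of these markers in the result was not tested.

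The difference of the compartments between the genotypes was tested as an interaction, and none of the 35 genes passed an adjusted p under 0.05 in edgeR or DESeq2 or an unadjusted p under 0.05 in edgeR, where 622 of 16603 genes had one. The median was -0.35, with 34 genes negative. Mx1 (-1.38, SE 0.72, unadjusted p = 0.0697, edgeR), Mx2 (-0.98, SE 0.53, unadjusted p = 0.0786, edgeR) and Cmpk2 (-1.08, SE 0.76, unadjusted p = 0.172, edgeR) had the lowest p.

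**Figure D5:**
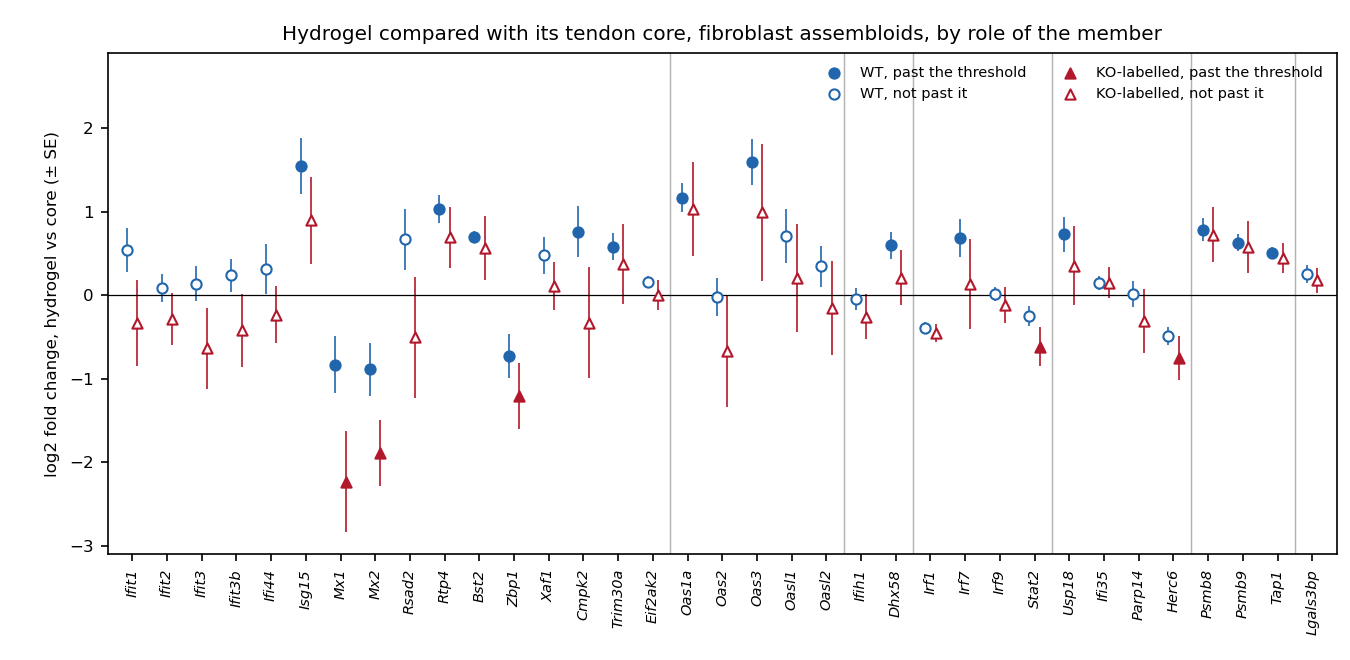
Log2 fold change (± SE, edgeR, fit without a block) of hydrogel against core for each of the 35 genes in WT (circles) and KO-labelled (triangles) fibroblast assembloids, in order of role, with filled symbols past the threshold. Mx1 and Mx2 are lower in the hydrogel in both, by 2.23 and 1.89 on the log2 scale in the KO-labelled assembloids, and the 3 antigen-processing genes are higher past the threshold in WT.

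The rest of the pathway was read from 5 further lists. The ligands were near 0: no type I, II or III interferon listed was above 0.496 CPM, the highest level of Ifnk, in any library, and Ifnb1 reached 0.111 CPM. The receptor genes were covered in every library, with Ifnar1 at 98.8 to 233 CPM and Ifnar2 at 67.2 to 133 CPM over all libraries. No interferon or receptor was past the threshold in a core comparison, while Ifnlr1, a subunit of the type III receptor, was lower in the hydrogel than in the core in WT (-1.69, adjusted p = 0.000144, edgeR) and KO-labelled assembloids (-1.46, adjusted p = 0.00415, edgeR).

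Among 34 tested further interferon-stimulated genes, 7 fell in the WT cores with fibroblasts and none rose, where 1.11% of all genes tested fell. Their median was -0.42. The lowest p were those of Epsti1 (-0.69, adjusted p = 0.0110, edgeR), Slfn5 (-0.68, adjusted p = 0.0157, edgeR), Sp100, a nuclear body protein (-0.68, adjusted p = 0.0160, edgeR), and Ddx60, a helicase that aids RNA sensing (-0.82, adjusted p = 0.0234, edgeR). None of 11 signalling genes, 12 nucleic-acid sensing genes or 12 class I presentation genes was past the threshold there. In the KO-labelled cores Phf11d alone fell (-1.20, adjusted p = 0.0336, edgeR), where 0.132% of all genes tested fell, with a median of -0.59 over the 34 genes. In the cell-free cores none of these lists had a gene past the threshold between the genotypes, and the median of the further interferon-stimulated genes was 0.25.

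With macrophages in the hydrogel, Tlr9, the endosomal sensor of unmethylated DNA, was higher in the WT cores. It was at 3.54, 3.12, 3.03 and 4.55 CPM with macrophages and averaged 0.914 ± 0.437 CPM (SD, n = 4) without cells, the groups being apart (log2 fold change 1.99, adjusted p = 0.00898, edgeR). Against fibroblasts the log2 fold change was 2.19 (adjusted p = 0.00108, edgeR). Phf11d (-1.04, adjusted p = 0.0282, edgeR) and Ifi27l2a (-1.23, adjusted p = 0.0338, edgeR) were lower than in the cell-free cores. Relative to fibroblasts, 7 of 35 further interferon-stimulated genes were higher and none lower, where 5.28% of all genes tested were higher. Apobec3, Ddx60, Ifitm1 and Oas1b led them. Nlrc5, the activator of class I genes, was higher by 0.60 (adjusted p = 0.00986, edgeR).

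Between compartments of the WT assembloids, 11 of 34 further interferon-stimulated genes were higher in the hydrogel and 2 lower, where 18.1% and 24.7% of all genes tested were. Shisa5 (0.66, adjusted p = 2.58e-06, edgeR) and Ifitm3, which blocks viral fusion (0.68, adjusted p = 2.08e-05, edgeR), were higher, and Ifitm1 (-2.82, adjusted p = 6.12e-06, edgeR) and Ifi205 (-2.19, adjusted p = 1.72e-05, edgeR) were lower. Isg20 (-0.72) and Irf2 (-0.57), signalling-list genes, and the kinase gene Ikbke (-0.61) were lower, and Psme2 (0.67) and Calr (0.54) of the class I list were higher.

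In the KO-labelled assembloids, 4 of the 34 were higher and 3 lower, where 17.0% and 24.6% of all genes tested were. Psme2 (0.84), Calr (0.71) and Pdia3 (0.54) were higher in the hydrogel, and Irf2 (-0.97), Isg20 (-0.68), Ikbke (-0.71) and Tlr9 (-1.02) were lower. Hydrogels of the 2 genotypes differed past the unadjusted threshold in 1 gene of these lists, Ifi205 (-1.05, unadjusted p = 0.0197, edgeR), and fibroblast cores in Tlr9 (0.64, unadjusted p = 0.0439, edgeR).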

How the data were processed

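RNA from 20 core and 12 hydrogel libraries was sequenced by the authors as ribosome-depleted, stranded total RNA on a NovaSeq instrument. The deposited tables hold estimated counts per gene, made by the authors by pseudoalignment, without normalization or pooling of libraries. The submitters' processing notes name kallisto 0.46.1, the build GRCm39 and DESeq2. Gene names were matched from a GRCm38 annotation by gene ID, which gave 25587 of the 25700 genes a symbol, and no coordinate was carried between builds. No column of other samples was present (0).

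Each comparison was fitted on the counts of the groups concerned, rounded to whole numbers, with filterByExpr, TMM scaling and the quasi-likelihood test of edgeR 4.0.16 (R 4.3.3) over all genes tested, two-sided, with Benjamini-Hochberg adjustment. A gene passed at adjusted p under 0.05 and a log2 fold change beyond 0.5. For KO against WT in fibroblast cores and in hydrogels the study's threshold of unadjusted p under 0.05 was kept. The SE is the log2 fold change divided by the root of the F statistic. Levels are CPM scaled by TMM over the 32 libraries. Exact permutation tests were two-sided and compared mean log2 CPM with a prior count of 2 (scipy 1.17.1), and the smallest p is 0.0286 for 4 against 4 and 0.00216 for 6 against 6 libraries. DESeq2 was version 1.42.0. The fitting steps were tested on simulated data with known fold changes.

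Depth was 20.4 M to 59.9 M assigned reads per library, and the lowest count of any of the 35 genes was 6, for Mx1. Levels are not per length, so no order of levels between genes was drawn beyond whether a gene was detected. No source says that same-numbered libraries share an animal or a day, so pairing was read from the data: the correlation of deviations from the group means was 0.173 to 0.535 for same-numbered hydrogels of both genotypes, 0.145 to 0.292 for macrophage and cell-free cores, 0.128 to 0.179 for macrophage and fibroblast cores and 0.138 to 0.325 for KO-labelled fibroblast and cell-free cores, all over 0.1. A library of another number correlated better for KO-labelled hydrogel replicates 2, 3 and 6 (0.614, 0.311 and 0.338). The same held for macrophage replicates 1 and 2 against cell-free cores (0.213 and 0.2), so these numbers are not shown to pair the libraries. Compartments were paired by the code in their titles (0.182 to 0.361 for KO-labelled, 0.199 to 0.252 for WT assembloids). Each core pool came from a single mouse and is a biological replicate per the study's methods. The hydrogel pools shared seeded cells pooled from 6 mice, so p-values there measure the spread between these pools.

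The 35 genes, the further pathway lists and the cell type markers were chosen with earlier results of these data known. Full statistics were given for the genes past the threshold of a comparison, up to 6 by lowest p, or for the 3 lowest p where fewer than 3 passed. From the further lists up to 4 genes past the threshold were named. Alternatives were DESeq2, other size factors, other filters and thresholds, blocks and leaving out each library. Some genes of these lists are not reported here.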

Additional observations from a re-analysis of the deposited data

Results flagged for a closer look

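In 245 sets of 4 or 6 libraries (each gene in each group), 17 libraries stood apart from the rest of their group by more than Dixon's 95% critical gap, of which chance alone gives about 1 set in 20. Of the 17, 8 were WT hydrogel replicate 1, each time as the highest library: Ifit1 at 57.3 CPM, Rsad2 at 46.4 CPM, Mx2 at 4.96 CPM, Usp18 at 23.95 CPM, Cmpk2 at 24.9 CPM, Trim30a at 73.2 CPM, Ifih1 at 42.8 CPM and Parp14 at 144 CPM. This is the library without which none of the 35 genes passed the threshold between the hydrogels of the genotypes. In the hydrogels around KO-labelled cores, Zbp1 was high in replicate 2 at 11.7 CPM and Irf1 was low in replicate 5 at 25.3 CPM.

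Among the cores, WT fibroblast replicate 2 was high for Oas3 at 12.4 CPM and for the immunoproteasome gene Psmb8 at 25.4 CPM. WT macrophage replicate 4 was high for Irf9 at 48.8 CPM and for Psmb9 at 12.1 CPM. WT cell-free replicate 4 was high for Oasl1 at 7.43 CPM, WT cell-free replicate 3 was low for Ifih1 at 36.9 CPM, and KO-labelled cell-free replicate 2 was low for Psmb8 at 18.6 CPM.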

How the results depend on the processing

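No value changed direction with its call under any alternative. Of 793 values of the genes named with full statistics, 663 kept their side of the threshold, 85 lost it and 45 gained it. The 663 include values of genes that did not pass as reported and still did not, which had no pass to lose. The counts of the 35 genes past the threshold moved more, and the cause was not tested. Between the hydrogels of the genotypes, the 2 lower genes were 1 with at least 10 counts in every sample, 0 at an adjusted p, 5 with the replicate block, 4 with the title number as a block and 0 to 12 without single libraries. For WT cores with fibroblasts, the 11 lower genes were 18 at an unadjusted p, 0 in the fit of all 5 core groups and 0 to 13 without single libraries. With the replicate block, whose numbers do not pair these samples (correlations from -0.006 to 0.347), there were 15. For KO-labelled cores with fibroblasts, 0 became 22 in DESeq2, 4 without a filter, 29 at an unadjusted p, 20 with the replicate block, 5 with the title number block, 19 in the fit of all core groups and 0 to 19 without single libraries. Between the genotypes of cell-free cores, 0 higher genes became 2 in DESeq2 and 17 at an unadjusted p, and the core interaction had 3 lower at an unadjusted p.

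For macrophage against cell-free cores, the 2 lower genes were 4 in DESeq2, 10 at an unadjusted p, 8 with the replicate block, 8 with the title number block, 1 in the fit of all core groups and 0 to 9 without single libraries. Against fibroblast cores, the 2 higher genes were 4 without a fold threshold, 4 at an unadjusted p, 1 in the fit of all core groups and 1 to 3 without single libraries, and the 0 lower became 1 in DESeq2, at an unadjusted p and with either block, and 0 to 1 without single libraries. Between WT compartments, the 13 higher genes were 8 with the title code block, and the 3 lower were 5 without a fold threshold and 0 to 4 without single libraries. Between KO-labelled compartments, the 0 higher genes were 1 in DESeq2, 2 without a filter, 7 with the replicate block, 1 with the title number block, 7 with the title code block and 0 to 5 without single libraries, and the 5 lower were 2 with the replicate block and 2 to 5 without single libraries. The replicate numbers do not pair these compartments (correlations from -0.102 to 0.129), unlike the title code. The blocks changed no other count by over 1.5 times.

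Over all genes tested, the number past the threshold ranged from 0 to 404 (115 as reported) for the hydrogels, 49 to 1221 (423) for WT and 4 to 1140 (69) for KO-labelled cores with fibroblasts, 291 to 1694 (757) and 1006 to 3200 (1766) for macrophages against cell-free and fibroblast cores, 0 to 1428 (392) for fibroblast cores of both genotypes, 0 to 199 (0) for cell-free cores, 5411 to 11480 (6870) for WT and 5115 to 10811 (6688) for KO-labelled compartments, and reached 504 and 622 (0) for the interactions. Scaling by the library total moved 7 of 245 group levels by over 1 SD and left the highest group the same for 32 of 35 genes. A 4 against 4 design limits these tests, and Mx1 and Mx2 rest on the lowest levels.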
